A study of Rattus norvegicus with 54 samples.

Results

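Dbp and Tef, the clock output factors of the PAR bZIP family, were followed in rat heart RNA as the rows of these 2 genes among the 10257 genes of the fpkm table. Male Wistar rats aged 7 to 8 weeks were kept for 5 weeks in single cages under 12 h of light and 12 h of dark. C rats were left undisturbed with free food, W rats were put to work in a slowly turning drum during the light phase on weekdays with free food, and WRF rats did the same work but could eat only outside working hours. Hearts, crushed together with their atria, were taken on a work-free Saturday at ZT1, 5, 9, 13, 17, and 21 (hours after lights on), 1 library per rat, 3 rats per group and time and 54 in all. All groups were thus measured on a day without work. In 12 of the 18 WRF rats the time in the title differs from the time in the other labels, and the title was used.

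The PAR bZIP proteins, named for a region rich in proline and acidic amino acids next to a basic leucine zipper, bind the D-box element and activate transcription from it. The clock activators CLOCK and BMAL1 (encoded by Arntl) drive Dbp through E-boxes, and the PER and CRY repressors close that loop, so that these factors carry the clock's time to detoxification and metabolic genes in liver and other tissues. Nfil3 (E4BP4), a bZIP repressor, competes for the same element. The third family member, Hlf, was not in the filtered table and was not analysed here.

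The promoter letters of both genes are shown because the members were read together as targets of the clock loop. They were taken from RefSeq (assembly GRCr8, not the rn6 build of the fpkm), as the 250 bases before the listed start on the plus strand. Capitals mark CACGTG, the E-box that CLOCK and BMAL1 bind, and CCAAT, a general promoter element, on either strand (ATTGG on the strand shown). The Dbp window is chr1:105312006-105312255, and the Tef window is chr7:115206577-115206826, which lies inside the annotated Tef gene because other Tef transcripts start farther upstream.
Dbp: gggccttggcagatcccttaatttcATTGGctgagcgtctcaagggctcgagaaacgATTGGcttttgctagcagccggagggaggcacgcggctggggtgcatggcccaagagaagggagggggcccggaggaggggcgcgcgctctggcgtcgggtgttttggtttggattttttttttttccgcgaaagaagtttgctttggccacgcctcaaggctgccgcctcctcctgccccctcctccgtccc
Tef: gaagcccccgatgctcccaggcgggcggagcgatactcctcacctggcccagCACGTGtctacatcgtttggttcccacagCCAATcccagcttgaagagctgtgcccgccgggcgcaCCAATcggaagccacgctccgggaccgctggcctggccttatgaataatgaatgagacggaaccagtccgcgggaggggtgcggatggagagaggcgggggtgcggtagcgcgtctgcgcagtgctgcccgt
The Tef window held 1 CACGTG, 198 bases before the start, and the Dbp window held 0. Of all 33469 promoter windows of that length, 5.593% held one, as did 8.32% of those of tabled genes. Each window held 2 CCAAT boxes, an element found in 34.017% of all windows and 35.1% of those of tabled genes. Neither window held the D-box TTANGTAA (2.044% of all windows, 1.04% of those of tabled genes). All were searched on both strands, and the motifs do not overlap. These matches describe the letters of the windows and nothing about binding, which was not analysed here, nor about sites outside them.

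The 8 cardiomyocyte markers summed to 12563 to 39433 fpkm in C rats, and 3 libraries stood out for markers of other tissues. WRF51 (ZT9) had a cardiomyocyte sum of 551 fpkm and 1419 fpkm of the lung gene Ager, against at most 4.79 fpkm in C rats. WRF62 (ZT5) had a cardiomyocyte sum of 2131 fpkm and 597 fpkm over 5 T cell genes, against at most 22.3 fpkm in C rats, and W21 (ZT17) had 1441 fpkm over 5 liver genes, against at most 185 fpkm. WRF51 also had 111 fpkm over the T cell genes. Smaller excesses over the C rats occurred in other libraries, such as liver sums of 310 fpkm in W1, 252 in W7, and 197 in WRF3. The 4 atrial markers summed to between 45.2 and 62455 fpkm across rats, with both low and high libraries in every group.

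In C rats Dbp swept over a wide daily range and Tef over a narrow one. Dbp was 6.55, 4.47, and 6.02 fpkm (ZT1), 21.1, 21.8, and 18.1 (ZT5), 142, 118, and 132 (ZT9), 66.8, 61.4, and 60.8 (ZT13), 22.7, 30.8, and 30.6 (ZT17), and 6.51, 7.00, and 9.23 (ZT21). No C rat at ZT9 overlapped any rat of another time, and the mean at ZT9 was 23.0-fold that at ZT1. Tef was 15.6, 12.6, and 11.9 fpkm (ZT1), 11.03, 14.2, and 8.64 (ZT5), 32.7, 42.5, and 24.97 (ZT9), 40.7, 40.03, and 35.5 (ZT13), 34.8, 36.95, and 33.6 (ZT17), and 22.3, 16.3, and 16.1 (ZT21). Tef stayed high from ZT9 to ZT17, where the rats of neighbouring times overlapped, and its highest mean (ZT13) was 3.43-fold its lowest (ZT5). In these whole-heart libraries, fewer cells of a type and less RNA per cell cannot be told apart.

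Both genes were rhythmic in C rats by harmonic regression, the fit of a 24 h cosine to fpkm with Benjamini-Hochberg adjustment over all genes, in which 0.848% of genes passed an adjusted p of 0.05 and 5.91% had an unadjusted p under 0.05. Dbp had a relative amplitude (amplitude over mean level) of 1.24 ± 0.27 (SE, n = 18) and a peak at ZT10.4 ± 0.62 h (adjusted p = 0.0151). Tef had a relative amplitude of 0.606 ± 0.070 (SE, n = 18) and a peak at ZT13.6 ± 0.40 h (adjusted p = 0.00053). The cosine took up 72.0% of the variance of Dbp and 85.7% of that of Tef. On the log2(fpkm + 1) scale, where the narrow Dbp peak weighs less, the cosine took up 93.9% of the variance of Dbp, with an amplitude of 2.09 ± 0.14, against 0.92 ± 0.10 for Tef. With any 1 of the 3 series of 6 C rats left out, Dbp no longer passed (adjusted p = 0.294 to 0.510), and Tef passed only without C25 to C30 (0.0349, against 0.183 without C17 to C22 and 0.0696 without C33 to C38). Few genes passed in these smaller sets: 0.00975% without C17 to C22, 0.205% without C25 to C30, and 0.0195% without C33 to C38.

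**Figure D1:**
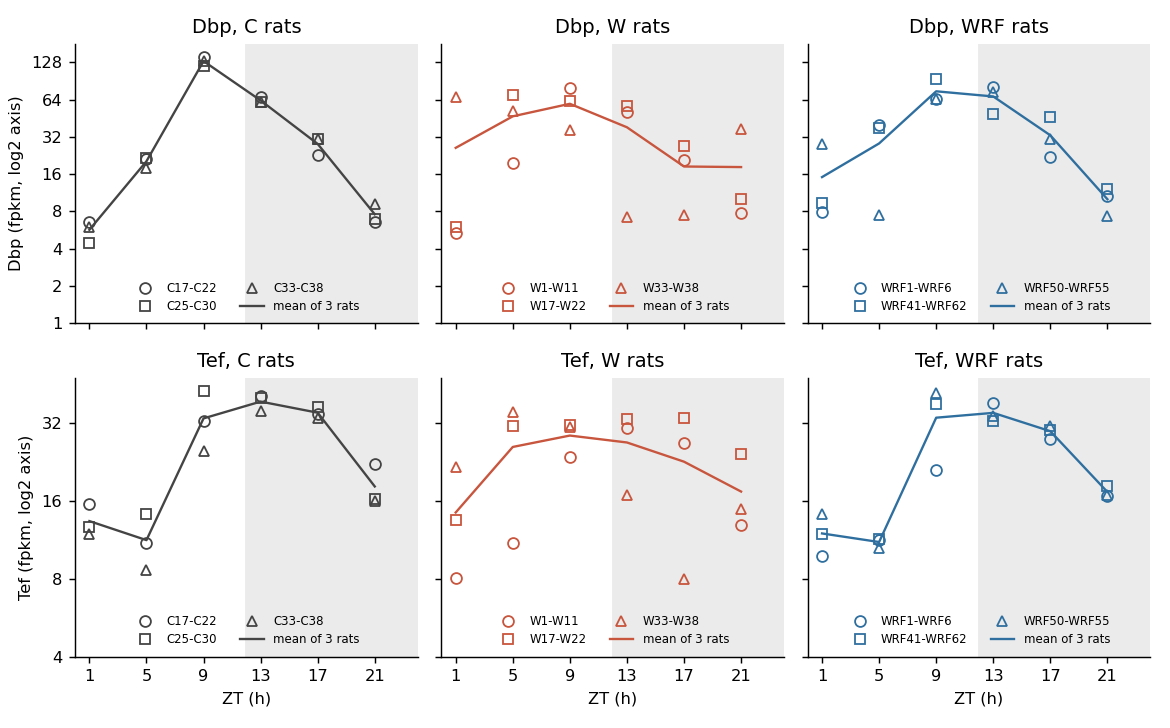
Dbp and Tef in fpkm (log2 axis) against ZT in C, W, and WRF rats, with 1 symbol per rat, symbol shapes for the 3 series of 6 rats in each group, lines through the mean of 3 rats, and the dark phase in grey. C rats of one time lie close together in Dbp, whereas the rats W33 to W38 run opposite to the other W rats at several times and WRF50 and WRF55 stand apart in Dbp.

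In W rats the values of both genes scattered widely at most times. Dbp was 5.37, 6.00, and 66.9 fpkm (ZT1), 19.7, 69.2, and 51.8 (ZT5), 79.1, 62.2, and 36.3 (ZT9), 50.9, 56.7, and 7.17 (ZT13), 20.6, 27.1, and 7.54 (ZT17), and 7.72, 10.1, and 36.9 (ZT21), the third rat of each time being from W33 to W38. Those rats were the highest of their time at ZT1 and ZT21 and the lowest at ZT9, ZT13, and ZT17. Tef was 8.10, 13.5, and 21.7 fpkm (ZT1), 11.03, 31.2, and 35.4 (ZT5), 23.6, 31.5, and 30.9 (ZT9), 30.8, 33.2, and 16.9 (ZT13), 26.8, 33.4, and 8.00 (ZT17), and 12.96, 24.4, and 14.8 (ZT21). The same series was highest in Tef at ZT1 and ZT5 and lowest at ZT13 and ZT17. The mean of the highest time was 3.25-fold that of the lowest for Dbp and 1.98-fold for Tef.

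Neither gene passed the rhythm test in W rats, in which 0.0% of genes passed and 3.05% had an unadjusted p under 0.05. Dbp had a relative amplitude of 0.607 ± 0.23 (SE, n = 18) with a peak at ZT8.14 ± 1.3 h (p = 0.0353, adjusted p = 0.9997 by harmonic regression), and Tef had 0.305 ± 0.13 with a peak at ZT10.5 ± 1.6 h (p = 0.0843, adjusted p = 0.9997). Without W33 to W38 the relative amplitude of Dbp was 0.954 with a peak at ZT9.93 (p = 0.000709, adjusted p = 0.525 by harmonic regression). That of Tef was 0.429 with a peak at ZT13.01 (p = 0.0139, adjusted p = 0.927). This series was singled out by its own Dbp and Tef values, so these p are descriptive. With any 1 W series left out, adjusted p ranged from 0.525 to 0.999 for Dbp and from 0.927 to 0.999 for Tef (harmonic regression). Dbp in W18 (69.2 fpkm, ZT5) also lay above the C rats of its time, and leaving out that rat alone gave relative amplitudes of 0.579 for Dbp and 0.309 for Tef.

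In WRF rats both genes had a daily course. Dbp was 7.86, 9.38, and 28.2 fpkm (ZT1), 39.9, 37.5, and 7.47 (ZT5), 65.0, 94.0, and 65.0 (ZT9), 80.8, 48.5, and 74.1 (ZT13), 22.1, 46.02, and 30.6 (ZT17), and 10.6, 12.2, and 7.28 (ZT21). WRF55 (28.2 fpkm at ZT1) and WRF50 (7.47 fpkm at ZT5) stood apart from the other 2 rats of their times. Tef was 9.82, 11.9, and 14.2 fpkm (ZT1), 11.3, 11.4, and 10.6 (ZT5), 21.02, 37.9, and 41.9 (ZT9), 38.4, 32.8, and 34.04 (ZT13), 27.9, 30.2, and 31.2 (ZT17), and 16.8, 18.4, and 16.9 (ZT21). The 3 rats of a time lay close in Tef except at ZT9, and WRF50 and WRF55 did not stand apart in it. The highest mean was 7.44-fold the lowest for Dbp and 3.16-fold for Tef.

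Dbp and Tef were 2 of the 4 genes (0.039%) that passed the rhythm test in WRF rats, where 6.35% had an unadjusted p under 0.05, and Tef had the smallest p of all genes. Dbp had a relative amplitude of 0.888 ± 0.15 (SE, n = 18) with a peak at ZT10.9 ± 0.53 h (adjusted p = 0.0404 by harmonic regression), and Tef had 0.585 ± 0.083 with a peak at ZT13.2 ± 0.50 h (adjusted p = 0.0404). The call of Dbp was lost without WRF51 (adjusted p = 0.0704 by harmonic regression), without WRF62 (0.0508), on the log2 scale (0.0577), and after median-of-ratios scaling of the libraries (0.112), while Tef passed in each of these (0.00243 to 0.0465), where 0.0292% to 0.078% of genes passed. With any 1 series left out neither gene passed (adjusted p = 0.430 to 0.710 by harmonic regression), and 0.0% of all genes did. With the times of the other labels, R2 was 62.7% for Dbp and 52.7% for Tef against 77.4% and 79.4% with the titles, and neither passed (adjusted p = 0.719 by harmonic regression), as 0.0% of genes did. The fitted peaks then lay at ZT8.36 for Dbp and ZT10.4 for Tef.

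The rhythm of each group was then set against C rats with limma, as the test of the cosine and sine terms on log2(fpkm + 1) in all 54 rats. Between W and C rats, Dbp had p = 0.00193 and Tef p = 0.00372, ranks 20 and 27 of all genes, and neither passed the adjustment (adjusted p = 0.967 and 0.9999 by limma), as 0.0% of genes did, with 1.83% at an unadjusted p under 0.05. Without W33 to W38 these p were 0.318 for Dbp and 0.342 for Tef in limma, and without the series W1 to W11 they were 5.38e-05 (adjusted p = 0.0725) and 2.31e-05 (adjusted p = 0.0394). Between WRF and C rats, Dbp had p = 0.246 and Tef p = 0.919 (adjusted p = 0.631 and 0.961 by limma), with 0.0% of genes passing and 5.76% at an unadjusted p under 0.05. Fitted without the W rats, whose scatter entered the shared spread, the p between WRF and C rats were 0.0604 for Dbp and 0.844 for Tef (limma, adjusted p = 0.818 and 0.937). Between WRF and W rats, Tef had p = 0.0102 and Dbp p = 0.0606 (adjusted p = 0.539 for both by limma, 0.0% of genes passing, 6.71% at an unadjusted p under 0.05). The comparisons of W and of WRF rats use the same C rats.

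At single times, 3 W or WRF rats were set against 3 C rats, where an exact permutation test cannot go below p = 0.1. At ZT9 all 3 W rats had less Dbp than all 3 C rats, in a contrast where 10.8% of genes did the same, and at ZT13 again, where 1.74% did. Tef in W rats lay below all C rats at ZT13 and at ZT17 (4.65% of genes). All 3 WRF rats also had less Dbp than the C rats at ZT9 (0.985% of genes), more Dbp at ZT1 (17.7% of genes), and less Tef at ZT17 (1.1% of genes). The WRF rats of ZT9 include WRF51 (65.0 fpkm of Dbp), whose cardiomyocyte sum was 551 fpkm.

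The sizes of these differences came from limma on log2(fpkm + 1). Dbp in W rats differed from C rats by -1.20 ± 0.66 (SE) at ZT9, -1.14 at ZT13, and 1.13 at ZT1. Without W33 to W38 these were -0.89, -0.22, and 0.013. In WRF rats it differed by -0.82 ± 0.66 at ZT9 and by 1.07 at ZT1, the latter being 0.54 without the series WRF50 to WRF55. Tef in W rats differed by 1.0 ± 0.35 at ZT5 (p = 0.00684, adjusted p = 0.99995 by limma) and by -0.82 ± 0.35 at ZT17 (p = 0.0248, adjusted p = 0.9998), or by 0.70 and -0.22 without W33 to W38. Tef in WRF rats stayed within 0.23 of C rats at every time, with 95% intervals about as wide as -0.94 to 0.48 at ZT17. Differences of either gene at single times did not pass the adjustment, as no gene did at any time in either contrast (0.0% of genes, with 0.77% to 5.06% in W and 2.23% to 17.5% in WRF rats at an unadjusted p under 0.05). The median difference over all genes lay between -0.11 and 0.12 in W and between -0.09 and 0.17 in WRF rats, and scaling that removes it turned the sign of Dbp in WRF rats at ZT13 (0.07 to -0.14) and of Tef at ZT5 and ZT21, and that of Tef in W rats at ZT1.

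**Figure D2:**
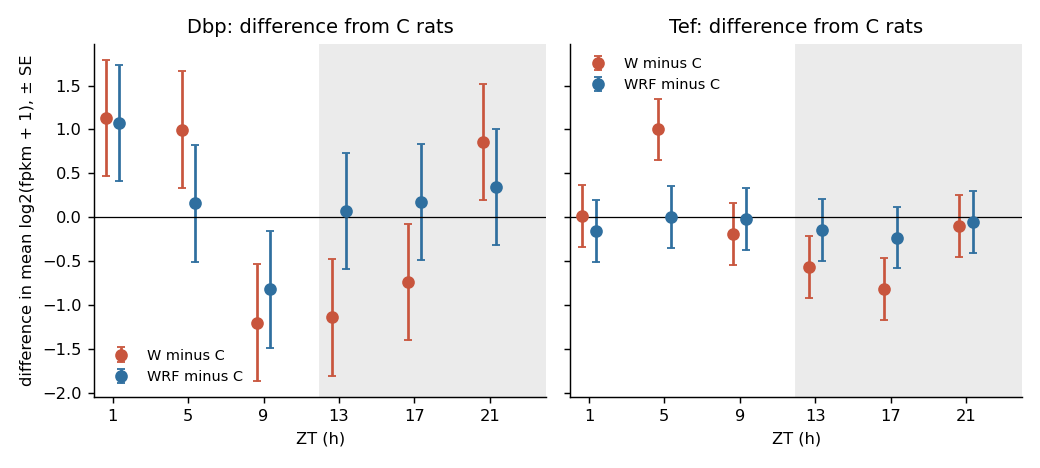
Difference in mean log2(fpkm + 1) from C rats at each ZT for W and WRF rats, with points for the contrast of 3 against 3 rats and bars for its SE. Dbp of W rats lies below 0 at ZT9 to ZT17 and above it at ZT1, ZT5, and ZT21, and Tef of WRF rats lies within 0.23 of 0 throughout.

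Averaged over the day, neither gene passed a test of its level between groups. In C, W, and WRF rats the median fpkm of Dbp was 22.2, 31.7, and 34.1, and that of Tef was 23.6, 24.01, and 19.7. For Dbp the groups overlapped in part, with ranges of 4.47 to 142 fpkm in C, 5.37 to 79.1 in W, and 7.28 to 94.0 in WRF rats. The C rats of ZT9 (118 to 142 fpkm), the time of their highest mean, lay above every W and WRF rat. This sets 1 time against all times, and its share over all genes was not computed. At ZT9 alone, all 3 W rats lay below all 3 C rats in 10.8% of genes, and all 3 WRF rats in 0.985%. The Kruskal-Wallis test, which called 9.17% of genes, gave p = 0.760 for Dbp and 0.688 for Tef (adjusted p = 0.855 and 0.806, n = 18 per group). With the time of day removed in limma, Dbp differed from C rats by -0.01 in W (95% interval -0.56 to 0.53) and by 0.17 in WRF rats (-0.38 to 0.71). Tef differed by -0.11 in W (-0.40 to 0.18) and by -0.10 in WRF rats (-0.39 to 0.19). The daily mean of 9.84% of genes passed between WRF and C rats (29.8% at an unadjusted p under 0.05), 9.58% between WRF and W rats, and 0.0% between W and C rats (0.916% at an unadjusted p under 0.05). Neither Dbp nor Tef did. The intervals leave room for daily means up to about 0.7 apart on the log2 scale.

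Within a time, the rats of a group lay closer together in Dbp among C rats than among W or WRF rats. The pooled SD of log2(fpkm + 1) around the mean of each time was 0.19 for Dbp in C rats, below the 0.28 of the median gene. In W rats it was 1.26 for Dbp (0.54 without W33 to W38), against 0.22 for the median gene, and 99.0% of genes had a smaller one. WRF rats had 0.73 for Dbp (0.40 without WRF50 to WRF55), against 0.41 for the median gene. Tef had 0.25 in C, 0.68 in W (0.54 without W33 to W38), and, in WRF rats, 0.24, where 12.8% of genes had a smaller SD. These SDs are given without a test of the difference between groups.

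Other clock genes were read in the rats that stood apart in Dbp. W33 (ZT1) had 66.9 fpkm of Dbp against 4.47 to 6.55 in C rats, 2.52 fpkm of Arntl against 10.8 to 14.0, and 6.20 fpkm of the repressor Ciart against 0.0912 to 0.166. W36 (ZT13) had 7.17 fpkm of Dbp against 60.8 to 66.8 in C rats and 8.94 fpkm of Arntl against 0.163 to 0.397. In WRF55 (ZT1) Dbp was 28.2 fpkm and Nr1d1, which encodes the repressor REV-ERB alpha, 32.1 fpkm against 5.81 to 8.03 in C rats, whereas Tef at 14.2 fpkm lay within the C range of 11.9 to 15.6. WRF50 (ZT5) had 7.47 fpkm of Dbp against 18.1 to 21.8 in C rats and 13.4 fpkm of Arntl against 7.15 to 9.99. Of 13 other clock genes (Nfil3, the 3 activators, and the 9 listed repressors), 13 lay outside the C range of the time in W18, where 45.1% of all genes did, and 13 in W33 (57.6% of all genes). W34 had 12 of 13 outside it (47.6%), W36 12 (43.6%), W37 11 (33.1%), and W38 10 (44.7%). The counts came nearer to the share over all genes in W35, with 7 of 13 (37.1%), in WRF50, with 10 (58.6%), and in WRF55, with 12 (72.3%). The rats were chosen here for their Dbp, and the time of death in them was taken from the titles. The other labels give ZT1 for WRF50, where C rats had 10.8 to 14.0 fpkm of Arntl and 4.47 to 6.55 of Dbp. For WRF55 they give ZT21, where C rats had 6.51 to 9.23 fpkm of Dbp.

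Tef followed Dbp in every series. Each group consists of 3 series of 6 rats, 1 per time, read from the rat numbers, and a cosine was fitted to each. The fitted Tef peak came 3.82, 2.26, and 3.79 h after the Dbp peak in the C series, 2.91, 3.04, and 3.31 h in the W series, and 3.31, 2.41, and 0.94 h in the WRF series. It was later in 9 of 9 series, by 2.87 ± 0.90 h (SD), with p = 0.00391 by an exact two-sided sign-flip permutation test, the smallest p that 9 series can give. In W33 to W38 the Dbp peak lay at ZT2.65 and the Tef peak at ZT5.96, which are shifts of -7.75 and -7.73 h from the C means. In the other 8 series the Dbp peak lay between ZT9.29 and ZT11.7, by the times of the titles. The series of WRF41 and of WRF50 are the 12 rats whose other labels give another time. The relative amplitude of Tef was 0.345 to 0.699 times that of Dbp across the 9 series. A series has 1 rat per time, so 1 misplaced rat moves its peak. The libraries that stood out for markers of other tissues were kept, W21 in W17 to W22, WRF62 in the series of WRF41, and WRF51 in WRF50 to WRF55.

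**Figure D3:**
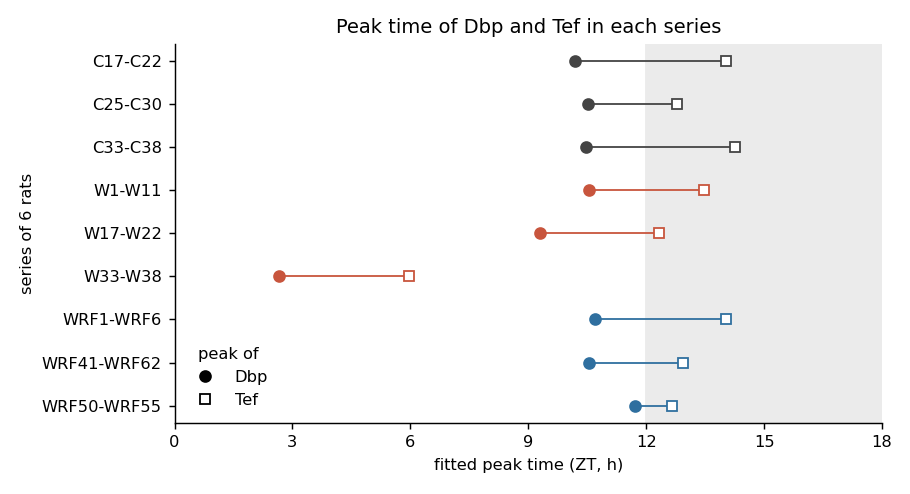
Fitted peak time (ZT, h) of Dbp (filled circles) and Tef (open squares) in each of 9 series of 6 rats, joined by a line, with the dark phase in grey. The Tef peak lies to the right of the Dbp peak in 9 of 9 series, and both peaks of W33 to W38 are shifted by -7.75 and -7.73 h from the C means.

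The ratio of the genes to each other was followed over the day. In C rats the ratio of Dbp to Tef fpkm had medians of 0.421 (ZT1), 1.91 (ZT5), 4.35 (ZT9), 1.64 (ZT13), 0.834 (ZT17), and 0.428 (ZT21), so that Dbp was above Tef in all C rats from ZT5 to ZT13 and below it in all others. The log2 ratio was rhythmic in C rats, with an amplitude of 1.54 ± 0.13 (SE, n = 18) and a peak at ZT9.47 (permutation p = 1e-05, the smallest that 100000 draws can give). In WRF rats its amplitude was 0.92 ± 0.21 with a peak at ZT8.88 (permutation p = 0.00297; 0.0926 without the series WRF1 to WRF6). In W rats it was 0.64 ± 0.29 (permutation p = 0.116), and 1.22 without W33 to W38 (permutation p = 0.0003). That series was singled out by its own Dbp and Tef values, so the latter p is no independent support for a rhythm. With any 1 W series left out, the amplitude ranged from 0.51 to 1.22. Adjusted over the 3 groups, the permutation p with all series were 3e-05 in C, 0.00446 in WRF, and 0.116 in W rats. The fpkm are per length of transcript, so the ratio compares levels of RNA. WRF51, WRF62, and W21, the libraries that stood out for markers of other tissues, were kept in these fits.

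**Figure D4:**
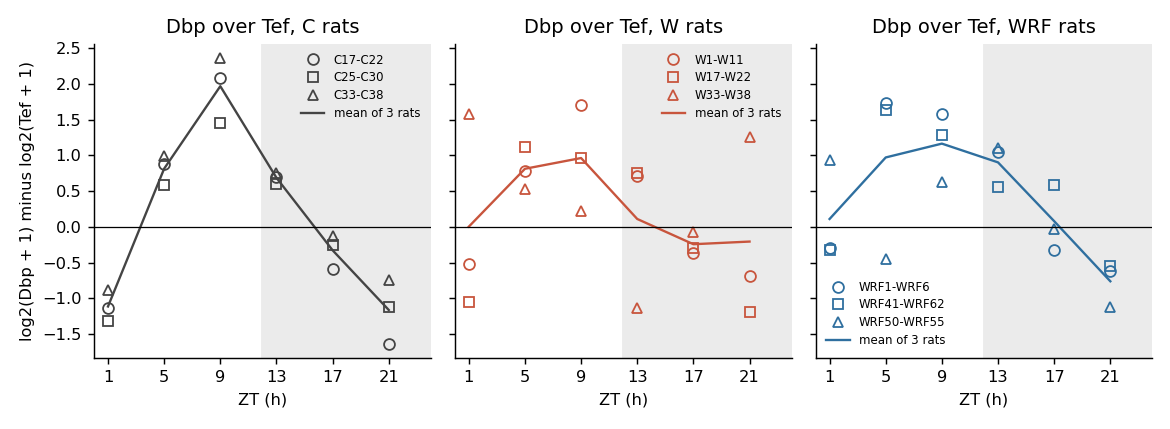
Log2 ratio of Dbp to Tef (log2(fpkm + 1) of each) against ZT in C, W, and WRF rats, with 1 symbol per rat and lines through the mean of 3 rats. Values above 0 mean more Dbp than Tef, which holds for all 9 C rats of ZT5 to ZT13 and no other C rat.

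Beyond the time of day, the members varied together in the working groups. With the mean of each time removed, log2(fpkm + 1) of Dbp and Tef correlated in W rats with r = 0.670 (permutation p = 0.00613, adjusted over 3 groups 0.0184, rho = 0.639, permutation p = 0.0109, n = 18). In WRF rats r was 0.395 (permutation p = 0.0271, adjusted 0.0407) and rho 0.676 (permutation p = 0.00327), and in C rats r was 0.010 (permutation p = 0.969) and rho 0.084 (permutation p = 0.769). Without the 2 rats farthest from the median in Dbp, r was 0.609 in W, 0.352 in WRF, and -0.044 in C rats. Leaving out any 1 series raised the permutation p to between 0.0931 and 0.219 in W and between 0.0624 and 0.22 in WRF rats, so the relation passed only with all 3 series together. The difference between groups in this correlation was not tested. WRF51, WRF62, and W21 were kept in these correlations.

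Over all 54 rats, many of the genes most like each member were genes of the clock. The highest correlations with Dbp in log2(fpkm + 1) were those of Ciart (r = 0.93), which represses CLOCK and BMAL1, and Nr1d2 (0.86), which encodes REV-ERB beta. Per3 (0.77), Bhlhe40 (0.74), a repressor at E-boxes, Nr1d1 (0.73), the epoxide hydrolase Ephx1 (0.72), Tef (0.71), and the PI3-kinase inhibitor Pik3ip1 (0.70) followed. The lowest were those of Arntl (-0.86), Nfil3 (-0.77), Palmd (-0.71), and Leo1 (-0.70). The median correlation of the other 9997 genes with Dbp was 0.07.

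For Tef the highest were Per2 (0.89), Per3 (0.85), Rhobtb1 (0.84), Ephx1 (0.81), the cryptochrome Cry2 (0.80), Per1 (0.79), Fam46b (0.79), and the phosphatase Dusp7 (0.78). The lowest were Arntl (-0.89), Npas2 (-0.79), a partner of BMAL1, Fam26e (-0.76), and the collagen Col5a3 (-0.74). Of the 8 genes most like each member, 2 were the same (Per3 and Ephx1). Nr1d1 was like Dbp (0.73) and not like Tef (0.15), and Nfil3 ran opposite to Dbp (-0.77) more than to Tef (-0.31). These correlations share the rats, their times and their libraries, and are given as a description.

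**Figure D5:**
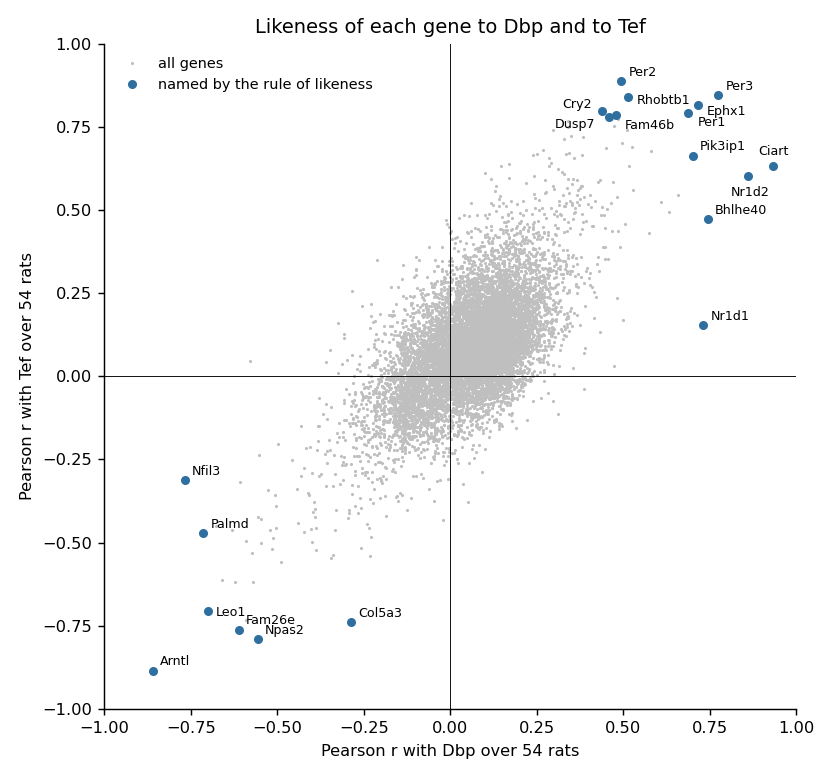
Pearson r of each gene with Dbp (horizontal) and with Tef (vertical) over 54 rats in log2(fpkm + 1), with grey dots for all genes and labelled points for the 8 highest and 4 lowest of each member. Ciart and Nr1d1 lie far to the right, Per2 lies highest, and Arntl lies lowest for both.

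The genes around the members in the pathway were read by the same rhythm test. Nfil3, the opposing repressor, had a relative amplitude of 0.560 ± 0.094 (SE, n = 18) in C rats with a peak at ZT22.2, between the times at which Dbp was lowest (adjusted p = 0.0124 by harmonic regression). In W rats its relative amplitude was 0.198 (p = 0.424 by harmonic regression). WRF rats had 0.438 for Nfil3 (p = 0.000335, adjusted p = 0.191). Of 3 activators of the loop, Arntl and Npas2 passed in C rats, and 0 of these genes passed in W or WRF rats, although in the latter all 3 had an unadjusted p under 0.05 (1 in W). Of 9 repressors, 6 passed in C rats and 0 passed in W rats, while Per3 and Nr1d2 passed in WRF rats, where all 9 had an unadjusted p under 0.05 (0 in W). The median relative amplitude of the repressors in the C, W, and WRF groups was 0.747, 0.298, and 0.665, and that of Arntl, which ran opposite to both members, 1.26, 0.638, and 1.02.

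Clock genes known to carry D-boxes and metabolic genes known to depend on these factors were counted beside the shares over all genes, which were 0.848% for C rats, 0.0% for W rats, and 0.039% for WRF rats. Of the D-box genes Per1, Per2, Per3, Nr1d1, and Nr1d2, which are also counted among the repressors, 4 passed in C, 0 in W, and 2 (Per3 and Nr1d2) in WRF rats. Their median relative amplitude was 0.816, 0.323, and 0.689, against 0.0806, 0.0727, and 0.196 over all genes. Of 8 genes that depend on PAR bZIP factors in liver or brain (Alas1, Por, Nr1i3, Pdxk, Acot1, Acot2, Acot3, and Ppara), 0 passed in any group, a count near the share over all genes. The P450 reductase gene Por had an unadjusted p under 0.05 in C rats (relative amplitude 0.227, peak at ZT15.4, adjusted p = 0.194 by harmonic regression), and Alas1, the first enzyme of heme synthesis, in W rats (0.241, peak at ZT12.5). These 8 had median relative amplitudes of 0.0841, 0.134, and 0.164 in the C, W, and WRF groups. Of 5 other outputs of the clock, the deubiquitinase Usp2 and the transcription factor Klf15 passed in C rats, and 0 passed in W or WRF rats.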

How the data were processed

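The deposited fpkm were used as they stood. The authors aligned polyA RNA-Seq reads of each heart to rn6 with TopHat2, estimated fpkm with Cufflinks (versions not given in the sources used here), and kept genes above 1 fpkm in at least 18 of 54 rats. Fpkm hold no counts, so depth per heart and counting error are unknown, and 433 values are 0. Rhythms were tested by harmonic regression on fpkm (24 h, F test, Benjamini-Hochberg) in Python 3.11.15 with scipy 1.17.1, numpy 2.4.6, and pandas 2.3.3; the 6 programs combined in the study were not run. Group levels were tested by Kruskal-Wallis, and differences by limma 3.58.1 in R 4.3.3, taking log2(fpkm + 1) and a trend of the variance. Both procedures were tested on simulated data.

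Groups and times came from the rat names. Named genes were every tabled gene of hand-written lists (PAR bZIP factors, clock, D-box genes, targets, outputs), the 8 highest and 4 lowest correlations with each member, and the neighbouring genes; copies of a value row counted once. The members and lists were chosen with earlier results of these data known. The sign-flip test of the peak delay, the counts of clock genes outside the C range, and the fits in the compared groups alone and without W18 or without WRF50 and WRF55 were added after seeing the data. Promoters came from RefSeq (GRCr8). Alternatives covered scale, pseudocount (0.1), scaling, a mean of at least 5 fpkm, label times, and left-out rats.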

Additional observations from a re-analysis of the deposited data

How the results depend on the processing

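The Kruskal-Wallis test over 6 times called 0 genes in any group (adjusted p = 0.761 for both genes in C and 0.928 for both in WRF rats). The few rats per time set a floor under the p of this test. A gene could then pass the adjustment only if very many genes reached that floor. The test therefore cannot decide whether the rhythm calls hold, and no conclusion was drawn from it. In WRF rats the call of Dbp was lost on the log2 scale (adjusted p = 0.0577 by harmonic regression) and after scaling (0.112). In the same test it was lost without WRF51 (adjusted p = 0.0704), without WRF62 (0.0508), and without both (0.0869). Both genes lost their call with the label times (adjusted p = 0.719 by harmonic regression). With the label times 0.0% of all genes passed, and in those other settings 0.00975% to 0.078% did. Without WRF50 and WRF55, a choice made after seeing the data, both kept it (0.017 for Dbp and 0.0433 for Tef).

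With 1 series left out, adjusted p ranged in C rats from 0.294 to 0.510 (Dbp) and from 0.0349 to 0.183 (Tef), in WRF rats from 0.430 to 0.710 (both), and for the rhythm difference of Tef between W and C rats in limma from 0.0394 to 0.99998. In the rhythm tests within a group, 0.00975% to 0.205% of all genes then passed in C and 0.0% in WRF rats. The ratio amplitude ranged from 0.51 to 1.22 in W and from 0.74 to 1.12 in WRF rats, and r of the deviations from 0.574 to 0.826 in W, from 0.352 to 0.627 in WRF, and from -0.097 to 0.098 in C rats.

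No level difference passed in any setting (lowest adjusted p 0.333 for daily means and 0.107 at single times, in limma), and those that turned sign in some setting are given here. Daily means of W against C ranged from -0.10 to 0.10 (Dbp) and from -0.29 to 0.024 (Tef) with a series left out, and Tef in WRF against W from -0.12 to 0.19 (-0.085 with scaling). At single times with a series left out, Tef in W against C ranged from -0.31 to 0.35 at ZT1 (-0.14 with scaling) and from -0.35 to 0.078 at ZT21. Dbp in WRF against C ranged from -0.23 to 0.90 at ZT5 (-0.19 without WRF51, WRF62, and W21), from -0.068 to 0.29 at ZT13 (-0.14 with scaling), and from -0.090 to 0.42 at ZT17. Tef in WRF against C ranged from -0.16 to 0.17 at ZT5 (-0.13 with scaling, -0.017 without those 3 rats), from -0.20 to 0.28 at ZT9, and from -0.13 to 0.092 at ZT21 (0.040 with scaling). The causes were not tested.

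C and W rats share 12 rat numbers. With the mean of each group and time removed, the correlations of same-numbered rats ran from -0.343 to 0.694, with 7 of 12 over 0.1. Rats of different numbers were not compared, so these values cannot tell whether the numbers pair rats. The main fits hold no term for the number. A fit with the number as a replicate block gave daily differences between W and C rats of 0.079 for Dbp and 0.076 for Tef in limma (the same without the number term in these rats), and adjusted p for the rhythm difference of 0.526 and 0.466, against 0.617 and 0.416 without it, so the block changed no call of either gene.

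All other alternatives kept the side of the threshold. Fpkm give no depth, so counting error could not be separated from differences between rats.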

Other observations

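The nearest genes of the members in RefSeq (GRCr8 order, protein-coding) were read as further values of the same regions. Beside Dbp, Car11 had a relative amplitude of 0.213 in C rats with a peak at ZT15.3 (p = 0.0202, adjusted p = 0.581 by harmonic regression), and Sphk2, a sphingosine kinase, had 0.208 with a peak at ZT22.2 (p = 0.00588, adjusted p = 0.298). Beside Tef, Tob2 had 0.439 with a peak at ZT14.1 (p = 0.0102, adjusted p = 0.419 by harmonic regression), and Zc3h7b had 0.051 (p = 0.803, adjusted p = 0.9999). None of these 4 neighbours passed the rhythm test in C rats, in which Dbp had 1.24 and Tef 0.606.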
